A study of Dicentrarchus labrax with 23 samples.

Results

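Endocytosis brings proteins from the gut lumen into the enterocyte, and the endosome then decides whether a cargo returns to the membrane, goes to the Golgi or ends in the lysosome. The genes described here encode the coats that form the vesicles, the sorting nexins and the retromer that retrieve cargo, the Rab GTPases that give each compartment its identity, the tethers and SNAREs that fuse membranes, and the myosins that carry vesicles along actin. In teleost fish the enterocytes of the posterior intestine are known for taking up intact protein from the lumen and digesting it in large vacuoles, whereas the anterior segments are the main site of fat absorption.

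The genes were selected by name from the list of genes that the study called between the anterior and middle segments, taken as 1 group (AI-MI), and the posterior segment (PI). A probe was taken where its name held a term of this machinery (sorting nexin, Rab, vacuolar protein sorting, AP complex, adaptin, clathrin, EH domain, epsin, syntaxin, vesicle-associated, vesicle transport, unconventional myosin-V, caveolin or TBC1 domain). This gave 86 probes with 86 different names among 3652 named probes, on an array with 14147 probes. Since the list held only genes called for AI-MI vs. PI, the PI values of these genes are given below as a description and without a test. The comparison of the middle with the anterior segment (MI vs. AI) was not itself used for the choice and was tested. Taking AI and MI as 1 group still favours genes whose MI and AI values lie close together. The names are those of the best matches in other species, so the roles given are those known from mammals or yeast, and the position of the probes in the sea bass genome was not analysed here.

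The name rule also caught a few genes outside endocytosis in the strict sense. Myosin-VIIa is a motor of microvilli and sensory hair bundles and not a class V myosin. VAMP-associated protein A holds contacts between the endoplasmic reticulum and other membranes. Sodium channel and clathrin linker 1 belongs to the distal appendages of centrioles, Rab-like protein 5 to the transport machinery inside cilia, and VPS13A transfers lipids between membranes.

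The tissue came from European sea bass (Dicentrarchus labrax) kept on a commercial diet under natural light and temperature and killed in midsummer after an overnight fast. No treatment was given, and the groups differ only in the stretch of gut taken: PI was the end of the intestine with the rectum (8 arrays), MI a portion from its middle (7 arrays) and AI the stretch directly behind the pyloric caeca (8 arrays). The RNA of each whole segment came from a single fish and was measured on its own 1-colour Agilent array made for this species. Signals are given on a log2 scale where 0 is the 75th percentile of the array, so that 1 unit is a 2-fold difference of intensity, and the level of a probe can be set against its own level in another segment but not against another probe.

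Between 82.8% and 93.1% of the probes were well above background per array, and no probe spot was saturated. Of the 14147 probes, 12894 were well above background on at least 7 arrays and were fitted. They include 85 of the 86 traffic genes, and the probe of clathrin light chain B, the other one, was not well above background on any array. The 3 slides each held arrays of every segment. Enterocyte markers were well above background on every array, and intestinal fatty acid-binding protein had median signals of 4.54 in PI, 8.46 in MI and 8.63 in AI. Its difference, PI minus AI-MI, was -4.06, while keratin 8 and sucrase-isomaltase differed by only -0.91 and -0.84. Whole segments hold muscle, blood and immune cells besides epithelium. All cell type markers given here, those of enterocytes included, come from the same list of called genes. Markers that the study did not call have no name here, so the PI values are a description and no measure of tissue composition. The mean signal of 4 smooth muscle genes was 1.96 to 3.08 in PI, 0.67 to 2.11 in MI and 0.24 to 1.81 in AI, and that of 6 B cell genes was -0.40 to 1.73, -2.28 to 0.42 and -2.96 to -0.65 in the same order. The 9 pancreatic enzyme genes had mean signals of -5.20 to 1.46 in PI, -1.64 to 7.71 in MI and -1.94 to 6.35 in AI. For 3 hemoglobin genes the mean was -2.87 to -0.11, -0.92 to 1.67 and -1.56 to 0.85 in the same order. The T cell gene CD3 gamma/delta had 0.37 to 1.33, -0.40 to 0.89 and -1.50 to 0.26. Myeloperoxidase, of granulocytes, had -0.67 to 2.18, -1.89 to -0.02 and -3.87 to -0.31. The part of these cells in the differences below was not tested, and in such samples fewer cells of a type and less RNA per cell cannot be told apart.

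Of the 85 traffic genes fitted, 68 had a higher mean signal in PI than in AI-MI and 17 a lower one. The median difference was 0.79 log2 units, beside 0.62 over the 3449 other named genes, which come from the same list of called genes, and -0.01 over all 12894 probes. All 85 passed an adjusted p of 0.05 in limma, as 44.1% of all probes did (22.6% higher and 21.5% lower in PI), and nothing is read from this because the names were chosen on this contrast. The 8 PI arrays lay above all 15 AI and MI arrays for 36 of the 86 genes and below them for 7. Over all probes fitted, 8.36% separated in this way, 4.34% with PI above and 4.03% with PI below. Choosing names on this contrast favours genes that separate, so nothing is read from these counts either, nor from the separations given by role or gene below. The 2 pairs of segments that make up the contrast share the PI arrays and gave the same direction for 85 of 85 genes. The choice of names makes such a match likely, and it is a description only. The names of the study's list reach down to about 1.5-fold, and the genes nearest to that limit were sorting nexin-7 (0.58), Rab-23 (0.59), the AP-2 mu subunit (0.60), Rab-44 (0.61) and TBC1D9 (0.61) among those higher in PI, and EH domain-binding protein 1-like protein 1 (-0.61) and SFT2B (-0.61) among those lower. Genes below the limit have no name here.

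**Figure D1:**
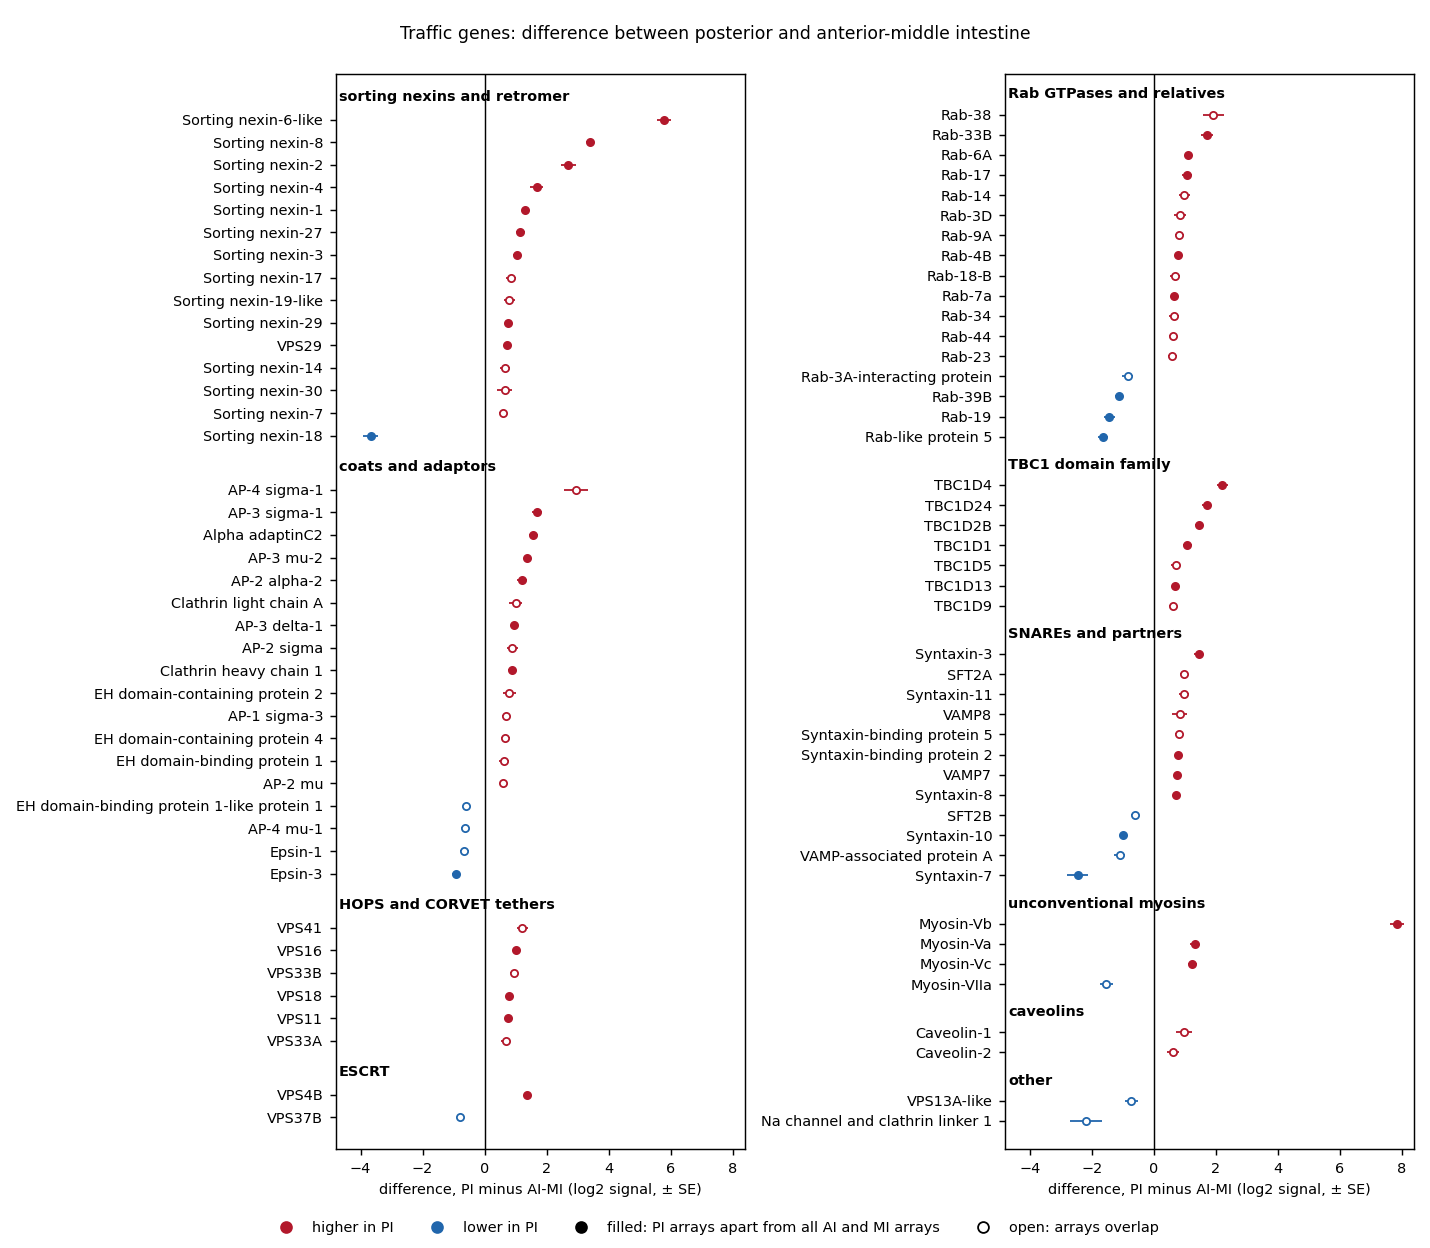
Difference between PI (8 arrays) and AI-MI (15 arrays) for the 85 traffic genes fitted, in log2 units with the standard error, grouped by role. Filled points mark genes whose PI arrays lie apart from every AI and MI array, and open points those that overlap. The TBC1 and HOPS genes with a name in the study's list all lie on the PI side, and genes that were not called are not shown. Myosin-Vb (7.84) and sorting nexin-18 (-3.68) stand at the ends.

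The difference was a step at the last segment rather than a slope for most of the genes. Taking each array's median deviation from the AI-MI mean over the 68 genes that were higher in PI, the PI arrays lay at 0.90 to 1.09, the MI arrays at -0.11 to 0.14 and the AI arrays at -0.18 to 0.10. Over the 17 genes that were lower in PI, the same medians were -1.47 to -0.71 in PI, -0.29 to 0.06 in MI and -0.04 to 0.16 in AI. The MI mean had covered a median of 1.99% of the way between the AI mean and the PI mean for the 68 genes and 12.1% for the 17, against 13.1% for the 3449 other named genes fitted. Over all probes this share was 21.8%, at a median size of the PI difference of 0.34, against 0.92 for the 68 genes. The shares are signed, and the MI mean lay on the PI side of the AI mean for 39 of the 68. In size, MI minus AI had a median of 0.15 for the 68 genes and 0.17 over all probes. The choice against AI and MI as 1 group favours genes with such a step. The MI mean lay on the PI side of the AI mean for 50 of 85 traffic genes (58.8%), which is close to the 59.6% of all probes, and for 67.8% of the other named genes. These shares are descriptions, since genes on the same arrays are not independent.

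The sorting nexins, proteins that bind endosomal lipids and shape the tubules through which cargo leaves, were mostly higher in PI. Of 15 genes of this group, 14 were higher in PI, with a median of 0.94 among them, and 9 of these separated from all AI and MI arrays. Over all probes fitted 4.34% separated with PI above, and the choice of names favours such genes. Sorting nexins 1, 2 and 6 form the membrane-bending part of the retromer, the coat that returns receptors from the endosome to the Golgi. The sorting nexin-6-like gene had signals of 4.65 to 5.48 (median 5.20) in PI, -1.35 to 0.67 (median -0.63) in MI and -1.38 to 0.34 (median -0.74) in AI. No PI array came near the range of the other segments, and the difference of 5.79 ± 0.23 log2 units (SE, n = 8 and 15) was 55.2-fold. This SE and those below take the arrays as unpaired, since the labels name no fish. Sorting nexin-2 had 2.46 to 3.53 (median 2.74) in PI, -0.49 to 1.25 (median -0.08) in MI and -0.65 to 1.43 (median 0.11) in AI, a difference of 2.70 ± 0.24. Sorting nexin-1 differed by 1.30 ± 0.09, also without overlap, and VPS29, a subunit of its cargo-binding part, by 0.72 ± 0.09. Thus the 3 membrane-bending subunits and the 1 cargo-binding subunit with a name in the list were all higher in PI, at unequal sizes.

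Sorting nexin-8, which works in the retrieval of cargo from endosomes to the Golgi, had 1.62 to 2.46 (median 2.30) in PI, -1.48 to -0.57 (median -1.32) in MI and -1.53 to -0.85 (median -1.13) in AI. Its difference was 3.41 ± 0.13, 10.6-fold, and the ranges of MI and AI lay over each other. Sorting nexin-4, which serves recycling to the plasma membrane and autophagy, had -0.18 to 0.85 (median 0.21) in PI, -1.94 to -0.63 (median -1.62) in MI and -1.98 to -0.37 (median -1.74) in AI, a difference of 1.68 ± 0.21 in which the lowest PI array was only a little above the highest AI array. Sorting nexin-27 (1.15 ± 0.13), which links retromer to the actin-building WASH complex and returns receptors and transporters to the cell surface, and sorting nexin-3 (1.03 ± 0.11), a cargo adaptor of retromer, separated as well. Sorting nexin-17, which recycles receptors of the LDL receptor family, differed by 0.84 ± 0.17 with overlapping arrays. The other members with a higher signal in PI, sorting nexins 7, 14, 19-like, 29 and 30, differed by 0.58 to 0.79.

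The exception was sorting nexin-18, which bends membranes at the cell surface and in the formation of autophagosomes. It had -5.01 to -3.03 (median -4.12) in PI, -0.63 to 0.25 (median 0.13) in MI and -1.27 to -0.20 (median -0.64) in AI. All PI arrays were below the lowest array of the other segments, and the difference was -3.68 ± 0.24, 12.8-fold lower in PI. PI replicates 7 and 8, at -3.03 and -3.11, were the highest of the 8.

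Coats and adaptors were represented by 19 genes, of which 14 were higher in PI and 4 lower. Clathrin heavy chain 1, the main building block of the coat, differed by 0.87 ± 0.12 without overlap, and clathrin light chain A by 0.99 ± 0.21 with overlap. The 3 genes named as subunits of AP-2, the adaptor that picks cargo for clathrin at the plasma membrane, were higher in PI, by 0.60 to 1.21. Alpha adaptinC2, a probe named only for a domain that several adaptins share, had 1.63 to 2.87 (median 2.45) in PI, 0.29 to 1.43 (median 0.90) in MI and 0.28 to 1.12 (median 0.83) in AI, a difference of 1.57 ± 0.15. PI replicate 7 was the lowest of the PI arrays and still above the highest MI array. AP-2 alpha-2 differed by 1.21 ± 0.15 with the background subtracted as deposited and by 0.16 after another background correction (normexp, described below the myosins). Its probe was well above background on 6 of 7 MI arrays.

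AP-3 carries cargo from endosomes to lysosomes and to lysosome-related organelles, and its 3 named subunits were all higher in PI with no overlap. The sigma-1 subunit had -0.63 to 0.52 (median -0.10) in PI, -2.16 to -1.47 (median -1.98) in MI and -2.13 to -0.86 (median -1.81) in AI, a difference of 1.69 ± 0.16. The mu-2 subunit differed by 1.37 ± 0.11 and the delta-1 subunit by 0.95 ± 0.09.

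AP-4, an adaptor of the trans-Golgi network, did not move as a unit. Its sigma-1 subunit had -1.54 to 1.35 (median 0.23) in PI, -3.55 to -0.67 (median -2.05) in MI and -4.10 to -1.75 (median -3.28) in AI, a difference of 2.94 ± 0.38. PI replicate 7, at -1.54, lay below MI replicate 3, at -0.67, and the other 7 PI arrays were above all AI and MI arrays. The mu-1 subunit had -2.29 to -1.60 (median -1.99) in PI, -1.72 to -0.99 (median -1.28) in MI and -1.71 to -0.92 (median -1.26) in AI, a difference of -0.65 ± 0.12.

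Both epsins, which bend the plasma membrane under a clathrin coat and bind ubiquitinated cargo, were lower in PI. Epsin-3 had -0.60 to 0.12 (median -0.12) in PI, 0.32 to 0.97 (median 0.83) in MI and 0.50 to 1.20 (median 0.81) in AI, a difference of -0.94 ± 0.11 without overlap, and epsin-1 differed by -0.65 ± 0.13. Thus clathrin and AP-2 on one side and the epsins on the other had opposite directions in the same samples. EH domain-containing proteins 2 and 4 and EH domain-binding protein 1, which act in recycling and at caveolae, were 0.62 to 0.79 higher in PI, and EH domain-binding protein 1-like protein 1 was lower.

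**Figure D2:**
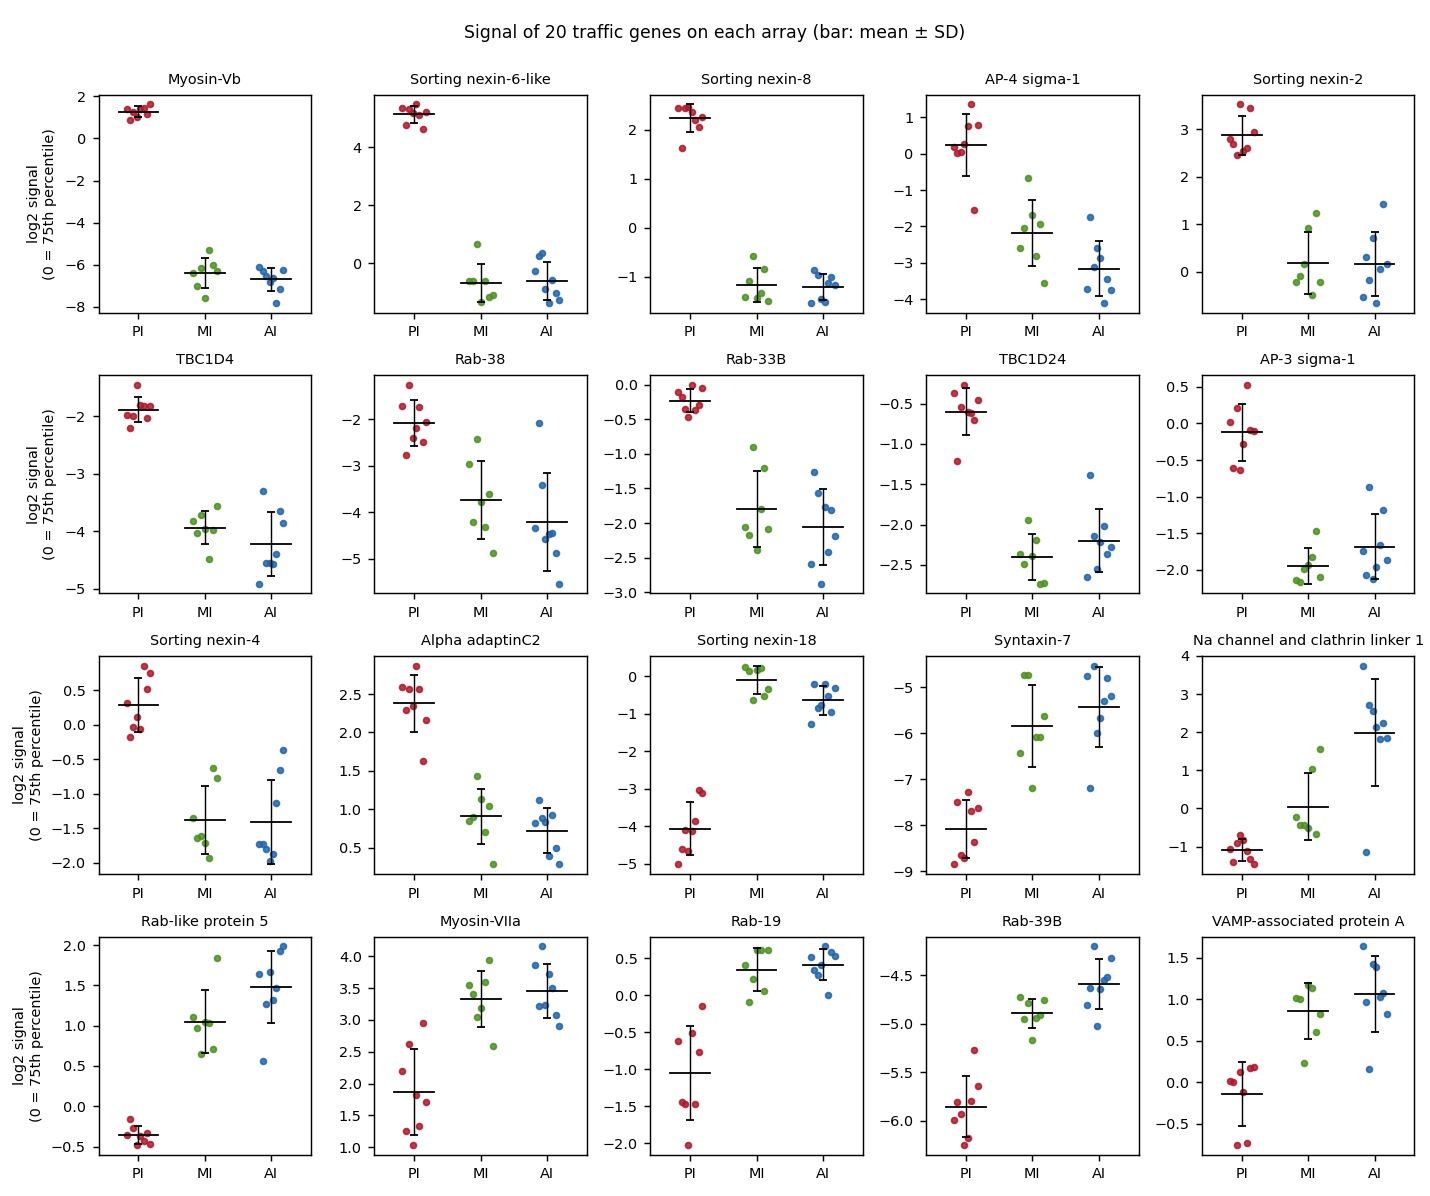
Log2 signal on each array of the 12 traffic genes with the largest difference higher in PI and the 8 with the largest difference lower in PI. Points are arrays, grouped as PI (8), MI (7) and AI (8), and bars give the mean and SD. For most genes MI and AI share one level and PI another, while the sodium channel and clathrin linker 1 has its MI arrays between the other segments and AI replicate 2, at -1.15, among the PI values.

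Among the Rab GTPases and their relatives, 13 of 17 genes were higher in PI. Rab-7a, which marks the late endosome and directs its fusion with the lysosome, had 5.32 to 5.67 (median 5.44) in PI, 4.70 to 4.96 (median 4.82) in MI and 4.56 to 5.15 (median 4.76) in AI. The difference was small, 0.66 ± 0.08 or 1.58-fold, yet none of the arrays overlapped. Rab-9A, which serves the return of receptors from late endosomes to the Golgi, differed by 0.82 ± 0.14, Rab-14, of the route between the Golgi and endosomes, by 0.98 ± 0.17, and Rab-4B, of fast recycling, by 0.78 ± 0.09. Rab-17, a Rab known from polarised epithelial cells where it acts in transport across the cell, had 1.74 to 2.52 (median 2.03) in PI, 0.23 to 1.21 (median 0.97) in MI and 0.21 to 1.57 (median 1.17) in AI, a difference of 1.07 ± 0.16. The Golgi Rabs were higher too, Rab-6A by 1.11 ± 0.10 and Rab-33B by 1.71 ± 0.19. Rab-33B had -0.46 to -0.01 (median -0.24) in PI, -2.39 to -0.90 (median -2.06) in MI and -2.87 to -1.27 in AI, so that the PI arrays were both higher and closer together.

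Rab-38, which delivers cargo to lysosome-related organelles, had the largest difference of the family and one of the widest spreads. It had -2.76 to -1.27 (median -2.13) in PI, -4.88 to -2.43 (median -3.78) in MI and -5.53 to -2.08 (median -4.46) in AI, a difference of 1.91 ± 0.34. AI replicate 2 (-2.08) and MI replicates 3 (-2.43) and 1 (-2.96) came near or into the range of the PI arrays.

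The 4 genes of this group with a lower signal in PI were Rab-19, Rab-39B, Rab-like protein 5 and the Rab-3A-interacting protein, an activator of exocytic Rabs (-0.85 ± 0.17). Rab-19, a Golgi-associated Rab, had -2.02 to -0.15 (median -1.10) in PI, -0.09 to 0.62 (median 0.41) in MI and 0.01 to 0.66 (median 0.46) in AI, a difference of -1.44 ± 0.18. Rab-39B, known for vesicle traffic in neurons, had -6.25 to -5.27 (median -5.87) in PI, -5.16 to -4.73 (median -4.92) in MI and -5.02 to -4.21 in AI, which is -1.12 ± 0.12. Rab-like protein 5, the ciliary transport subunit, had -0.48 to -0.16 (median -0.36) in PI, 0.65 to 1.84 (median 1.03) in MI and 0.57 to 1.98 (median 1.55) in AI, which is -1.64 ± 0.17. For each of these 3 genes all PI arrays were below all others.

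TBC1 domain proteins switch Rabs off. All 7 with a name in the list were higher in PI, by 0.61 to 2.20 with a median of 1.07. Family members that the study did not call have no name here, so this is no result about the family. Over all probes fitted, 22.6% were called higher in PI (limma, adjusted p under 0.05). TBC1D4, which holds back insulin-responsive vesicles in muscle and fat, had -2.20 to -1.46 (median -1.90) in PI, -4.49 to -3.57 (median -3.97) in MI and -4.91 to -3.31 (median -4.47) in AI, 2.20 ± 0.17 or 4.61-fold. Its close relative TBC1D1 differed by 1.07 ± 0.15. TBC1D24, which acts on Arf6 and in vesicle traffic at synapses, had -1.21 to -0.27 (median -0.57) in PI, -2.73 to -1.94 (median -2.39) in MI and -2.65 to -1.39 (median -2.24) in AI, a difference of 1.70 ± 0.14. TBC1D2B differed by 1.45 ± 0.12, and TBC1D5, which controls Rab-7 at the retromer, by 0.70 ± 0.15. Of the 7, 5 separated from all AI and MI arrays, the exceptions being TBC1D5 and TBC1D9. This stands beside 4.34% of all probes fitted with PI above, and the choice of names favours such genes.

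The tethers that bring late endosomes and lysosomes into contact and have a name in the list were all higher in PI. Tether genes that the study did not call have no name here. Over all probes fitted, 22.6% were called higher in PI (limma, adjusted p under 0.05). VPS11, VPS16, VPS18 and VPS33A form the core shared by the HOPS and CORVET complexes, and VPS41 is particular to HOPS. VPS16 had 3.28 to 3.79 (median 3.56) in PI, 2.29 to 2.97 (median 2.65) in MI and 2.22 to 2.86 (median 2.43) in AI, a difference of 1.01 ± 0.10. VPS18 differed by 0.79 ± 0.10, VPS11 by 0.76 ± 0.10 and VPS33A by 0.68 ± 0.14, and the first 2 of these separated as VPS16 did. VPS41 differed by 1.21 ± 0.18 with a low PI array at -1.09 and a high AI array at -0.85. VPS33B, which acts with a partner of its own in the sorting of apical membrane proteins, differed by 0.94 ± 0.12, and 1 PI array at 2.46 reached into the AI range. The 6 differences spanned 0.68 to 1.21, a narrow range beside that of the sorting nexins.

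ESCRT proteins sort ubiquitinated receptors into the vesicles inside late endosomes. VPS4B, the ATPase that takes the ESCRT filaments apart, had -0.90 to -0.11 (median -0.40) in PI, -2.17 to -1.37 (median -1.90) in MI and -1.95 to -1.56 (median -1.84) in AI, which is 1.36 ± 0.10 higher in PI. VPS37B, a subunit of ESCRT-I, was lower in PI, with a difference of -0.79 ± 0.12 and overlapping arrays. The other 2 genes outside the main roles were lower as well, VPS13A-like with a difference of -0.73 ± 0.20, as was the sodium channel and clathrin linker 1, which is described with the middle segment.

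SNAREs are the proteins that pull membranes together for fusion, and 8 of 12 genes of this group were higher in PI. Syntaxin-3, the SNARE of the apical membrane in enterocytes, had 1.58 to 2.78 (median 2.51) in PI, 0.47 to 1.09 (median 0.86) in MI and a median of 1.08 in AI, a difference of 1.44 ± 0.15. Its regulator syntaxin-binding protein 2 had 2.59 to 3.23 (median 2.86) in PI, 1.92 to 2.24 (median 2.06) in MI and 1.92 to 2.19 (median 2.10) in AI, which is 0.79 ± 0.08. Both separated from all AI and MI arrays. In humans, defects of myosin-Vb, syntaxin-3 or syntaxin-binding protein 2 disturb the brush border of enterocytes. These 3 genes were higher in PI without overlap, while myosin-VIIa, a motor of microvilli, was lower in PI (-1.53). Over all probes fitted 4.34% separated with PI above, and the choice of names favours such genes. The paper reports vil1l, named for the microvillus protein villin, as higher in AI-MI. The 3 genes thus do not stand for the brush border as a whole. The brush border was not tested as a set.

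The SNAREs of the late endosome were split. Syntaxin-7, syntaxin-8 and VAMP8 work together in the fusion of late endosomes, and VAMP7 in their fusion with lysosomes. Syntaxin-8 (0.72 ± 0.10), VAMP7 (0.76 ± 0.09) and VAMP8 (0.83 ± 0.23) were higher in PI, VAMP8 with overlap. Syntaxin-7 had measured signals of -8.85 to -7.28 (median -8.02) in PI, -7.19 to -4.73 (median -6.08) in MI and -7.19 to -4.53 (median -5.24) in AI. It was not well above background on any of the 8 PI arrays, and it was above it on 6 of 7 MI and 7 of 8 AI arrays. The measured means were -8.08 in PI and -5.62 in AI-MI. With PI set to the detection limit where it was below it and AI-MI kept as measured, syntaxin-7 was 2.91-fold lower in PI. The limit of an array was the lowest signal called well above background there. After the normexp correction the difference was -0.53 log2 units, so its size depends on how dim signals are handled. Syntaxin-10, of the trans-Golgi network, had 1.91 to 2.71 (median 2.53) in PI, 2.98 to 3.65 (median 3.57) in MI and a median of 3.41 in AI, a difference of -0.98 ± 0.12 without overlap. VAMP-associated protein A had -0.76 to 0.18 (median 0.01) in PI, 0.23 to 1.17 in MI and 0.16 to 1.64 (median 1.05) in AI, a difference of -1.11 ± 0.17 in which the highest PI arrays reached the lowest AI array. SFT2A and SFT2B, a pair of related Golgi proteins, went in opposite directions (0.98 ± 0.13 and -0.61 ± 0.14).

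Myosin-Vb, which carries Rab-11 recycling endosomes to the apical membrane, had the largest difference of all 85 genes. Its signals were 0.88 to 1.62 (median 1.32) in PI, -7.57 to -5.32 (median -6.29) in MI and -7.82 to -6.13 (median -6.59) in AI. In PI the probe was well above background on 8 of 8 arrays, but in MI on 3 of 7 and in AI on 5 of 8, so the measured difference of 7.84 ± 0.23 rests on signals near the limit in the anterior segments. After the normexp correction it was 4.66. The other 2 class V myosins were higher in PI by much less, myosin-Va by 1.32 ± 0.14 and myosin-Vc by 1.24 ± 0.15, and neither overlapped. Myosin-VIIa had 1.04 to 2.96 (median 1.77) in PI, 2.59 to 3.94 (median 3.41) in MI and 2.91 to 4.15 (median 3.37) in AI, a difference of -1.53 ± 0.22. PI replicates 7 (2.96) and 3 (2.62) reached above the lowest MI array, and the other 6 did not.

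The normexp correction, which adds 50 intensity units to each signal and so pulls dim values together, gave a median of -0.13 over all probes and of 0.67 over the traffic genes, and moved 13 of the 85 differences by over 1.5-fold. Beside myosin-Vb and AP-2 alpha-2, it gave 2.28 for AP-4 sigma-1, 1.26 for TBC1D4, 0.92 for Rab-38, -2.63 for sorting nexin-18, -0.53 for syntaxin-7 and -0.51 for Rab-39B. Sorting nexin-17 (0.21), sorting nexin-14 (0.01) and syntaxin-11 (0.31) kept little of their difference, and Rab-23 (-0.11) and sorting nexin-19-like (-0.10) changed their sign. Other small differences shrank much without moving by over 1.5-fold. EH domain-containing protein 4 fell from 0.66 to 0.14, EH domain-binding protein 1 from 0.62 to 0.16 and Rab-34 from 0.65 to 0.15. Rab-4B fell from 0.78 to 0.24, caveolin-2 from 0.62 to 0.25 and sorting nexin-30 from 0.64 to 0.27. In size, 72 of the 85 differences were smaller after the correction. In limma, 75 of the 85 genes then passed the adjusted p threshold, which is a description only.

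MI vs. AI, the contrast that the choice of genes did not use directly, asked whether the machinery already differs between the anterior and middle stretches of the intestine. No traffic gene passed an adjusted p of 0.05 (limma, two-sided, Benjamini-Hochberg over 12894 probes), and neither did any other probe (0 of 12894, 0%). At an unadjusted p under 0.05 there were 8 of 85 traffic genes, beside 12.7% of all probes, and the test named in the methods gave 9 traffic genes, 1605 probes and again 0 after adjustment. The median difference, MI minus AI, was 0.02 log2 units over the traffic genes, with 45 of 85 higher in MI. The p-values measure only the spread between these samples.

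For the 3 genes with the largest differences higher in PI the interval between MI and AI was narrow beside the step to PI. The 95% interval of MI minus AI was -0.76 to 0.60 for sorting nexin-6-like, -0.31 to 0.37 for sorting nexin-8 and -0.35 to 0.97 for myosin-Vb. It was wide beside the step for others, with -0.49 to 1.43 for Rab-38 (1.91 higher in PI), 0.14 to 1.83 for AP-4 sigma-1 (2.94 higher) and -3.14 to -0.74 for the sodium channel and clathrin linker 1 (PI difference -2.18). The intervals of Rab-7a (-0.22 to 0.25) and syntaxin-binding protein 2 (-0.18 to 0.19) lay close around 0.

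The 6 traffic genes with the smallest p between MI and AI were Rab-34, caveolin-2, the sodium channel and clathrin linker 1, caveolin-1, Rab-3D and sorting nexin-18, with adjusted p of 0.20 to 0.27 in limma. Rab-34, known from the positioning of lysosomes and from cilia, had -4.01 to -3.41 (median -3.65) in MI and -4.71 to -3.95 (median -4.19) in AI, a difference of 0.52 ± 0.14 (SE, n = 7 and 8). Rab-3D, a Rab of secretory granules, had -2.94 to -1.55 (median -1.91) in MI and -2.96 to -1.82 (median -2.66) in AI, which is 0.60 ± 0.21. In both cases PI was higher than either, at medians of -3.48 and -1.53. Sorting nexin-18 was 0.53 ± 0.19 higher in MI than in AI, whereas in PI it was lowest, so its order was MI, AI, PI, with MI and AI not different beyond their spread at the adjusted p of 0.27.

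**Figure D3:**
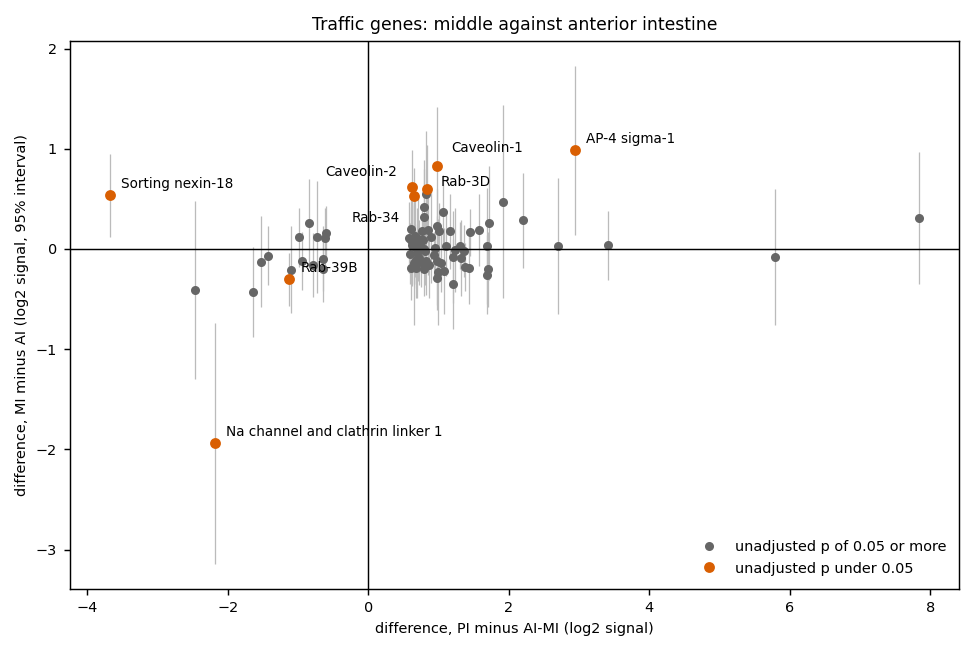
Difference between MI (7 arrays) and AI (8 arrays) with its 95% interval, set against the difference between PI and AI-MI, for the 85 traffic genes fitted. Both axes are in log2 units, and named points have an unadjusted p under 0.05. Most points lie near the horizontal zero line over the whole range of PI differences, with the sodium channel and clathrin linker 1 (-1.94) and AP-4 sigma-1 (0.98) farthest from it.

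The sodium channel and clathrin linker 1 was the traffic gene with the largest difference between MI and AI. It had -1.46 to -0.69 (median -1.08) in PI, -0.67 to 1.57 (median -0.42) in MI and -1.15 to 3.74 (median 2.19) in AI. Of the AI arrays, 7 lay between 1.83 and 3.74 and replicate 2 at -1.15, and of the MI arrays, replicates 5 (1.03) and 7 (1.57) stood above the other 5. The difference, MI minus AI, was -1.94 ± 0.57 (adjusted p = 0.22, limma), and this gene alone among the 85 differed by more than 1 unit between these segments, as 366 of all probes did. Without AI replicate 2 the difference was -2.39 (adjusted p = 0.0066, limma).

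Caveolin-1 and caveolin-2 build the flask-shaped caveolae of endothelial and smooth muscle cells, and EH domain-containing protein 2 sits at their neck. All 3 had a graded order. Caveolin-1 had -1.25 to -0.16 (median -0.78) in PI, -1.99 to -0.60 (median -1.27) in MI and -2.78 to -0.90 (median -2.05) in AI. The difference was 0.83 ± 0.28 for MI minus AI (adjusted p = 0.24, limma) and 0.53 ± 0.20 for PI minus MI. Caveolin-2 had -3.28 to -2.19 (median -2.70) in PI, -3.40 to -2.61 (median -2.96) in MI and -4.10 to -2.94 (median -3.63) in AI. This is 0.62 ± 0.17 for MI minus AI (adjusted p = 0.22, limma) and 0.29 ± 0.17 for PI minus MI. EH domain-containing protein 2 had 3.55 to 4.89 (median 3.99) in PI, 3.14 to 4.18 (median 3.49) in MI and 2.50 to 4.21 (median 3.14) in AI. Its MI minus AI difference was 0.41 (95% interval -0.06 to 0.89). The segments overlapped for each of these genes. The 4 smooth muscle genes had the same order, 0.48 to 0.61 higher in MI than in AI and 1.04 to 1.54 higher in PI than in AI-MI, with adjusted p of 0.27 or more between MI and AI in limma. These 4 genes too come from the list of called genes, so their PI difference is a description only. AI replicate 2 was the highest AI array for both caveolins, for EH domain-containing protein 2 and for the smooth muscle mean. The part of muscle tissue in the caveolar signals was not tested.

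**Figure D4:**
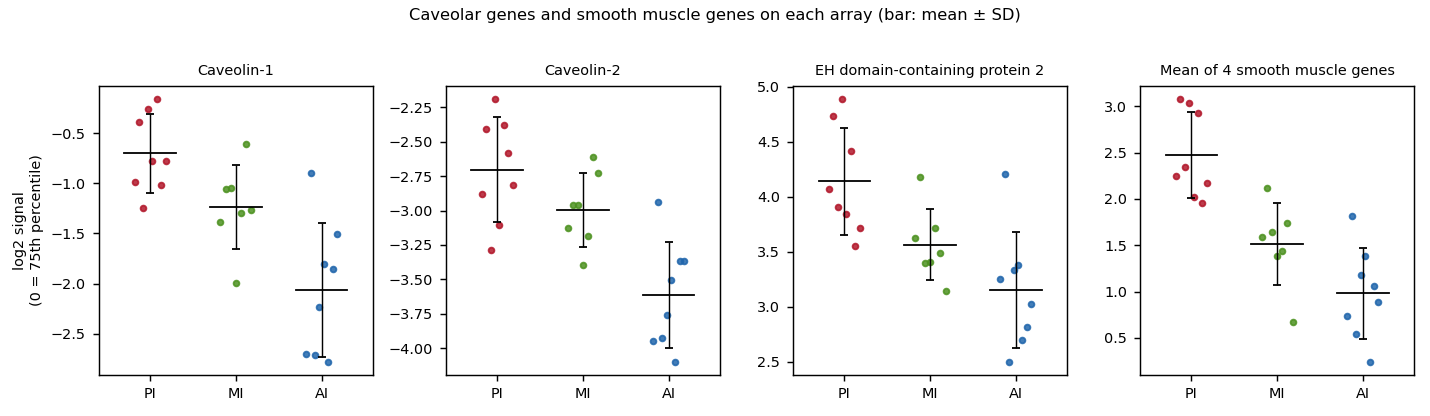
Log2 signal on each array of caveolin-1, caveolin-2 and EH domain-containing protein 2, and the mean of 4 smooth muscle genes, in PI (8 arrays), MI (7) and AI (8). Bars give the mean and SD. In all 4 panels the means fall in the order PI, MI, AI, and AI replicate 2 is the topmost AI point. The smooth muscle genes, like the others, come from the study's list of called genes.

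These MI vs. AI counts depended on single arrays. Without AI replicate 2, 588 probes (4.56%) and 5 traffic genes passed the adjusted p of 0.05 in limma: the sodium channel and clathrin linker 1 (-2.39), caveolin-1 (0.99), caveolin-2 (0.72), Rab-3D (0.70) and Rab-34 (0.56). Without MI replicate 7, 40 probes (0.31%) and no traffic gene passed. Leaving out both, a choice made after the values were seen, 1048 probes (8.13%) and 10 traffic genes passed, the others being AP-4 sigma-1, TBC1D1, VAMP8, EH domain-containing protein 2 and Rab-like protein 5. AP-4 sigma-1 was then 1.41 higher in MI, with an adjusted p of 0.018 in limma, against 0.98 ± 0.40 with all arrays. Whether the shares among traffic genes differ from those of all probes was not tested.

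Genes that work with these proteins but fall outside the name rule were counted from the same list of called genes, so their PI values too are a description. The endocytic receptors and their adaptor stood highest: 8 of 8 genes fitted were higher in PI, with a median difference of 3.72, and the ninth, cubilin-like, was too dim to be fitted. Cubilin was well above background on only 2 MI and 2 AI arrays, and disabled homolog 2-like on 3 and 3. The size of their differences and of the median thus rests partly on signals near the limit. Megalin (low-density lipoprotein receptor-related protein 2), the large scavenger receptor of absorbing epithelia, had -0.78 to -0.22 (median -0.40) in PI, -5.38 to -3.71 (median -4.97) in MI and -5.22 to -4.13 (median -4.89) in AI, a difference of 4.34. Disabled homolog 2, which ties these receptors to clathrin and AP-2, differed by 2.36, with PI arrays at 1.26 to 3.34, MI arrays at -1.28 to 0.87 and AI arrays at -1.05 to 1.23. Only the traffic genes myosin-Vb and sorting nexin-6-like reached differences of the size of megalin's.

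The WASH complex builds actin on endosomes beside the retromer, and its 6 genes in the list were all higher in PI, by 0.68 to 1.49. Genes of the groups in this paragraph that the study did not call have no name here. The 6 genes of BLOC and the Hermansky-Pudlak proteins, which with AP-3 and Rab-38 make lysosome-related organelles, were all higher as well, by 1.07 to 1.80. The 8 myotubularins, phosphatases and related proteins of endosomal phosphoinositides, differed by 0.70 to 1.06, the 3 exocyst genes by 0.60 to 1.64 and the 2 ESCRT-III genes by 0.75 and 0.95. Exocyst complex component 6-like (0.60) was well above background on only 2 MI and 2 AI arrays. Hermansky-Pudlak syndrome 4 protein (1.19) was so on only 1 MI and 5 AI arrays, so both values rest partly on signals near the limit. Rab effectors and exchange factors were mixed, 6 higher and 5 lower. Among them Rab GTPase-activating protein 1 was 2.19 higher in PI, and of the partners of Rab-11, Rab11 family-interacting protein 3 was 1.73 higher while proteins 1 and 4A were lower, with differences of -1.48 and -0.94.

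The called genes of the early secretory pathway ran the other way. Genes of this pathway that the study did not call have no name here, so this is no result about the pathway as a whole. Over all probes fitted, 21.5% were called lower in PI (limma, adjusted p under 0.05). All 13 genes listed for COPII, COPI and the early secretory pathway were lower in PI, with differences of -2.27 to -0.60 and a median of -0.95. They include Sec61 beta (-0.69), a subunit of the protein channel of the endoplasmic reticulum and not of a coat. The probe of p115 was well above background on only 2 PI, 5 MI and 4 AI arrays. Sec23A, a subunit of the inner COPII coat, had 0.51 to 0.82 (median 0.69) in PI, 1.37 to 2.47 (median 1.90) in MI and 1.76 to 3.06 (median 2.33) in AI, a difference of -1.45. Sec16B-like, which organises the exit sites of the endoplasmic reticulum, differed by -2.27. All 13 also had a lower mean in MI than in AI, with differences of -0.49 to -0.08, with 0 called and 4 at an unadjusted p under 0.05 in limma. The median difference, MI minus AI, was -0.02 over all probes, and 45 of 85 traffic genes were higher in MI. Since none of the 13 was called, no difference between MI and AI is read from this.

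**Figure D5:**
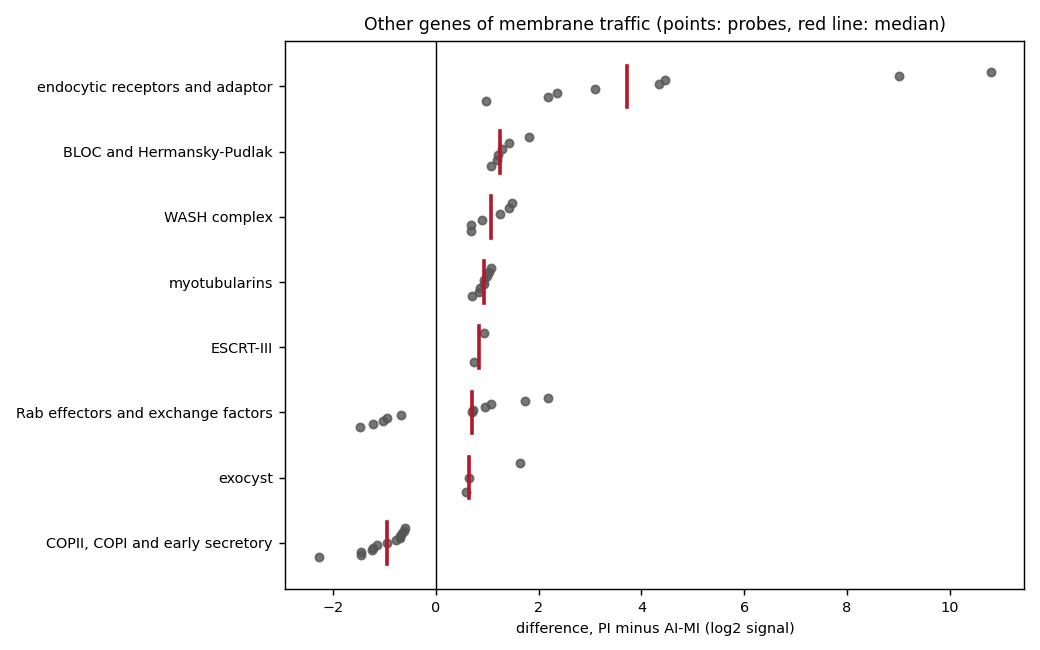
Difference between PI (8 arrays) and AI-MI (15 arrays), in log2 units, for genes of membrane traffic outside the name rule. Each point is a probe and the red line the median of its list. The endocytic receptors (median 3.72, partly from signals near the limit in MI and AI) lie farthest to the PI side. The 13 early secretory genes all lie below 0.

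The spread between fish was of like size in the segments. For the 68 genes higher in PI the median SD was 0.28 in PI, 0.28 in MI and 0.36 in AI, and for the 17 genes lower in PI it was 0.30, 0.29 and 0.35 in the same order. AI replicate 2 was the highest AI array for 21 of the 68 genes and AI replicate 8 for 18, while PI replicate 2 was the lowest PI array for 22. For the 17 genes lower in PI, replicates 7 and 8 were the highest PI arrays in 7 and 4 cases. Within each slide, 68 genes were higher in PI, with a median difference over the 85 of 0.74 on slide 1, 0.85 on slide 2 and 0.77 on slide 3. The choice of genes on this contrast in the same arrays makes such a match likely, and it is a description only.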

How the data were processed

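Total RNA of 23 intestine segments (8 PI, 7 MI and 8 AI) was measured in 1 colour (Cy3) on Agilent arrays carrying oligonucleotide probes designed from assembled sea bass transcripts. The authors extracted the spots with Agilent Feature Extraction 11.5.1.1, and the deposited processed signal is an intensity after background subtraction and detrending, not scaled between arrays. The deposited value table of the authors is on the log2 scale. Set against the scanner signals, its values equal log2 signal less the 75th percentile of the array and the median of the probe, to within 0.00245 to 0.0152 (median size of the differences on an array).

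Each array has 15744 spots, 536 of them controls. Between 1 and 47 probe spots per array marked as uneven or outlying were left out, log2 signals of the remaining spots were averaged per probe and the 75th percentile was subtracted. A probe entered the fit if at least 7 of the 23 arrays had it well above background, and the fit was made with limma 3.58.1 in R 4.3.3 (lmFit and eBayes, two-sided), with Benjamini-Hochberg adjustment over all probes and a threshold of 0.05. Tables were prepared in Python 3.11.15 (pandas 2.3.3). The fit was tested on simulated data. Precision is limited by how many arrays there are.

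The settings varied were scaling (quantile), background (normexp, offset 50, planned on mean signals and run on the median signals the files hold), no filter, the authors' table, blocks for slide or replicate number, a joint fit, the t-test of the methods for MI vs. AI and each array left out in turn. Fits within slides and without pairs of arrays were added after values had been seen. Deviations of PI and AI arrays with the same number correlated at 0.189 to 0.59 (8 of 8 pairs over 0.1). For MI and AI, and likewise for PI and MI, 6 of 7 pairs were over 0.1. The median over pairs with the same number was 0.351 for PI and AI, 0.326 for MI and AI and 0.435 for PI and MI. Pairs with different numbers had medians of -0.0469, -0.0599 and -0.0386 in the same order. The labels name no fish, and arrays with the same number often share a slide. Whether a shared fish or a shared slide lies behind these correlations was not tested, and the main fits took the arrays as unpaired.

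Gene names came from the study's list of called genes, read from its text, without fold changes. The genes and the lists were chosen with earlier results of these data known. Full values are given for the 12 genes with the largest difference higher in PI, the 8 with the largest difference lower in PI and the 6 with the smallest p for MI vs. AI, and further genes were described after their values were seen.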

Additional observations from a re-analysis of the deposited data

Results flagged for a closer look

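Among 72 groups of arrays (24 traffic genes in 3 segments), 6 held an array far from the others of its segment by Dixon's criterion, which chance meets in about 1 of 20 groups. Sorting nexin-6-like was at 0.67 in MI replicate 3, while the other MI arrays were at -1.35 to -0.61. AP-4 sigma-1 was at -1.54 in PI replicate 7, with the other PI arrays at 0.03 to 1.35. TBC1D24 was at -1.21 in PI replicate 2, beside -0.70 to -0.27 on the other PI arrays. The sodium channel and clathrin linker 1 was at -1.15 in AI replicate 2, against 1.83 to 3.74 on the other AI arrays. In MI replicate 7, Rab-like protein 5 was at 1.84 (other MI arrays 0.65 to 1.11) and Rab-3D at -2.94 (other MI arrays -2.07 to -1.55). What sets these arrays apart was not tested.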

How the results depend on the processing

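The count of 68 traffic genes higher in PI was the same with quantile scaling, with the authors' table, without the filter, with a block for slide, within each slide and with each array left out in turn (68 to 68), and was 66 with normexp. The genes were chosen on this contrast in these same arrays. That makes a stable count likely, so nothing is read from it. The MI vs. AI count of 0 probes became 49 in a joint fit of the 3 segments, 588 without AI replicate 2, 40 without MI replicate 7 and 1048 without both (limma, adjusted p). Over the arrays left out in turn it ranged from 0 to 588 for all probes and from 0 to 5 for traffic genes, and without both arrays 10 traffic genes passed. The cause was not tested. With the replicate number as a block, 68 traffic genes were higher in PI and 0 probes passed for MI vs. AI. At an unadjusted p under 0.05 (limma) there were then 2642 probes and 12 traffic genes, against 1638 and 8 without the block. For PI minus AI-MI, 6806 of 12894 probes passed the adjusted p of 0.05 with this block, against 5684 without it (limma). The count of genes with MI on the PI side of AI was 49 with the block and 43 to 53 over the arrays left out. Myosin-Vb, syntaxin-7, sorting nexin-19-like and AP-2 alpha-2 were not well above background on every array of at least 1 segment, which limits their values.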
